A study of Pomacea canaliculata with 36 samples.

Results

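The step described here runs from 15 to 21 days post amputation (dpa) in the regenerating eye stalk of *Pomacea canaliculata*, the apple snail. It was defined by label, as the 4 libraries of 21dpa against the 4 libraries of 15dpa, 8 of the 36 libraries of the series. The choice was made with earlier results of these data known. Each group was polyadenylated RNA of the eye stalk, sequenced and counted per gene. The 21dpa and 15dpa stalks had both been amputated, and the other groups drawn on here were stalks at 1, 3, 6, 9, 12 and 28dpa and Intact stalks, which had not been cut, with 4 libraries each. The day of the 6dpa group follows the sample labels; the series' design text gives it as 7dpa. The labels give no strain, sex, age or treatment beyond the amputation. Whether each library is from its own animal is not stated, and the p-values then reflect only how far libraries of a group spread, some of which may be technical.

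The apple snail carries an eye of the camera type at the tip of each stalk, in which a lens casts an image on a retina of photoreceptor cells. When the stalk is cut the snail closes the wound, grows new tissue and forms a new eye. The late part of such a regeneration is the time in which a formed eye grows and its cells mature. Genes are known here only by locus identifiers, because the files and the gene table do not pair them with product names. No role is therefore given to any gene, and the tissue could not be checked against marker genes. In tissue RNA, fewer cells of a type and less RNA per cell cannot be told apart.

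Library totals of the step lay between 24803923 and 29291830 counts, and the totals of the 2 groups overlapped. Of 21131 genes, 17341 had enough counts to be tested. Levels are given as CPM, counts per TMM-scaled library of a standard size, and 1 CPM stood for 24.1 to 28.0 counts in these 8 libraries. In log2 CPM over all tested genes, the 16 pairs of a 21dpa and a 15dpa library lay 80.1 to 93.3 apart. The 6 pairs within 21dpa lay 68.8 to 80.7 apart and the 6 pairs within 15dpa 54.8 to 75.3 apart, so distances between the days reached just down into the range seen within 21dpa.

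Between the days 1144 genes rose (6.60% of those tested) and 1119 fell (6.45%), 13.0% of the genes tested together (edgeR quasi-likelihood test on all 36 libraries, Benjamini-Hochberg adjusted p below 0.05). Most changes were small. The median size of a called change was 0.66 on the log2 scale among the rises and 0.51 among the falls. Of the rises, 296 were of 2-fold or more and 15 of 8-fold or more, against 201 and 9 of the falls. For 814 of the rises and 826 of the falls the 4 and 4 libraries did not overlap, and a further 1175 genes had no overlap but were not called, of 16.2% without overlap among all tested genes. The count depended on single libraries. Leaving out 15dpa replicate 2 gave 1118, leaving out 21dpa replicate 2 gave 1213 and leaving out 15dpa replicate 4 gave 1479, and 803 of the 2263 genes, 359 rises and 444 falls, were called in each of the 8 fits that left a library out. The count was 1279 when only the 8 libraries were fitted and 3839 with limma-voom, which was run with sample weights.

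**Figure D1:**
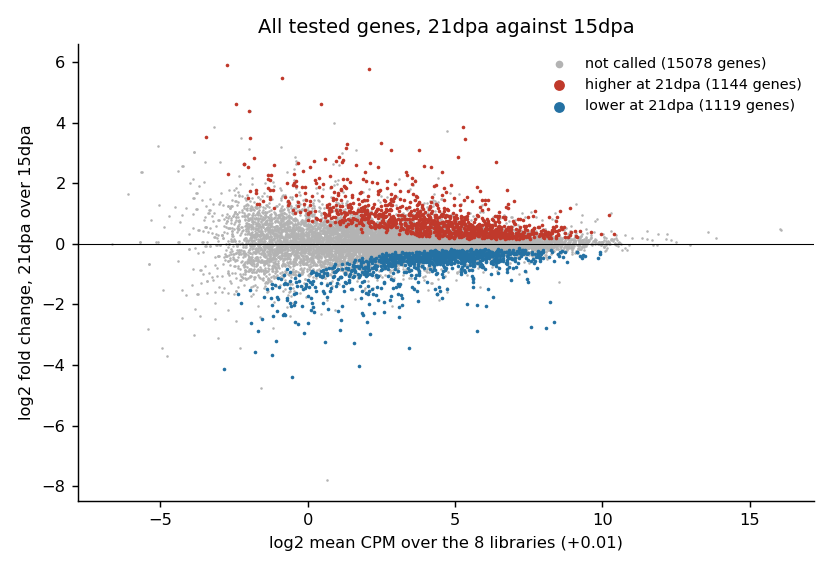
Each point is a tested gene, with its log2 mean CPM over the 8 libraries on the x axis and its log2 fold change, 21dpa over 15dpa, on the y axis. The 1144 genes called higher at 21dpa and the 1119 called lower lie on both sides at levels up to 1000 CPM, most of them within 2-fold of no change. Of the 69 genes above 1000 CPM, 3 were called higher and none lower.

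The balance of rises and falls moved with the level and with the scaling. Among genes of 100 to 1000 CPM, 166 rose and 105 fell of 1739. Among those of 10 to 100 CPM, 594 rose and 644 fell of 8443, and of the 69 genes above 1000 CPM 3 rose and none fell. The genes with the most counts took more of the library at 21dpa. The 10 with the most counts over the step held 22.02, 19.7, 22.8 and 19.8% of the counts in the 21dpa libraries and 17.97, 17.8, 18.4 and 15.2% in the 15dpa libraries. The groups did not overlap, with a mean of 21.1 ± 1.57% at 21dpa and 17.3 ± 1.43% at 15dpa (SD, n = 4 each; two-sided exact permutation test, p = 0.0286, the smallest this design allows). Without 15dpa replicate 4 the difference was 3.04 points, in place of 3.75, and the exact permutation p was 0.0571. Scaled by library size alone, 21.8% of the called genes were rises (645 rises, 2308 falls) in place of 50.6%, and the median log2 fold change of all tested genes was -0.10 in place of 0.01. Directions of small changes are thus relative to the scaling, and under that scaling all 1119 falls and 645 of the 1144 rises were called in the same direction.

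Of this difference of 3.75 points, 3.38 lay in LOC112556451 and LOC112556452, the genes with the most counts, picked here after their values had been seen. LOC112556451 stood at 87196, 71120.5, 84024 and 74018 CPM in the 21dpa libraries and at 56912, 60084, 64649 and 48145 CPM in the 15dpa libraries. Every 21dpa library was above every 15dpa library. LOC112556452 stood at 81440.1, 70469.6, 89293 and 68385 CPM at 21dpa and at 56839.6, 55893, 59683 and 47166 CPM at 15dpa, also without overlap. Together they were 15.0 ± 1.34% of the counts at 21dpa and 11.6 ± 1.16% at 15dpa (exact permutation test, two-sided, p = 0.0286, n = 4 each). Neither passed the test across genes: the log2 fold changes were 0.46 ± 0.21 and 0.50 ± 0.22 (SE; edgeR adjusted p = 0.146 and 0.130). When only the 8 libraries were fitted both passed it, at adjusted p of 0.0376 and 0.0318. Reads that fit both genes cannot be separated here.

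Of the genes named by rule, LOC112554533 and LOC112557863 had the largest rises among called genes that averaged 5 CPM or more on the higher day and whose libraries did not overlap. LOC112554533 had 12.2, 14.3, 11.5 and 2.87 CPM in the 21dpa libraries, against 1.07, 0.717, 1.65 and 0.658 CPM in the 15dpa libraries. Replicate 4 was the lowest 21dpa library and still stood above all 15dpa libraries. The log2 fold change was 3.32 ± 0.55 (SE; edgeR adjusted p = 0.000194). LOC112557863 had 12.8, 22.9, 8.68 and 6.401 CPM at 21dpa and 1.43, 1.59, 1.13 and 1.75 CPM at 15dpa. Its 15dpa libraries lay close together and its 21dpa libraries spread over more than 3-fold (log2 fold change 3.10 ± 0.40, adjusted p = 1.03e-05, edgeR). Neither gene had stood that high on average at any earlier time, Intact included, and both stayed high after the step. In CPM, LOC112554533 averaged 1.40 ± 0.103 (Intact), 4.01 ± 2.46 (9dpa), 1.43 ± 0.982 (12dpa) and 10.7 ± 6.94 (28dpa; SD, n = 4). LOC112557863 averaged 1.45 ± 0.352 (Intact), 4.06 ± 1.56 (9dpa), 1.54 ± 0.720 (12dpa) and 9.26 ± 3.42 (28dpa). At 28dpa, a group outside the step but in the same fit, both were above Intact (log2 fold change 2.92, adjusted p = 6.88e-05, and 2.66, adjusted p = 9.38e-06, edgeR). For these genes the step thus led away from the level of the uncut stalk.

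The largest falls by the same rule were in LOC112574311 and LOC112568029. LOC112574311 had 0.0800, 0.461, 0.400 and 0.582 CPM at 21dpa and 2.86, 13.0, 3.38 and 6.03 CPM at 15dpa. The groups were far apart, with 15dpa replicate 2 the highest (log2 fold change -4.03 ± 1.04, edgeR adjusted p = 0.00962). Without that library the log2 fold change was -3.41 and the adjusted p 0.0588, and over all 8 fits that left a library out the log2 fold change lay between -4.30 and -3.41. LOC112568029 had 0.360, 2.23, 3.34 and 1.21 CPM at 21dpa and 17.8, 37.2, 9.60 and 15.0 CPM at 15dpa (log2 fold change -3.45 ± 1.04, adjusted p = 0.0277, edgeR). Without 21dpa replicate 1, 2 or 4 or 15dpa replicate 2 the adjusted p lay between 0.0682 and 0.0988, while the log2 fold change was -3.12, -3.57, -3.31 and -2.96 in these fits. Neither gene had followed a steady course before the step. LOC112574311 averaged 5.23 ± 6.23 CPM (1dpa) and 0.116 ± 0.101 CPM (3dpa), and LOC112568029 averaged 7.31 ± 13.8 CPM (12dpa; SD, n = 4).

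**Figure D2:**
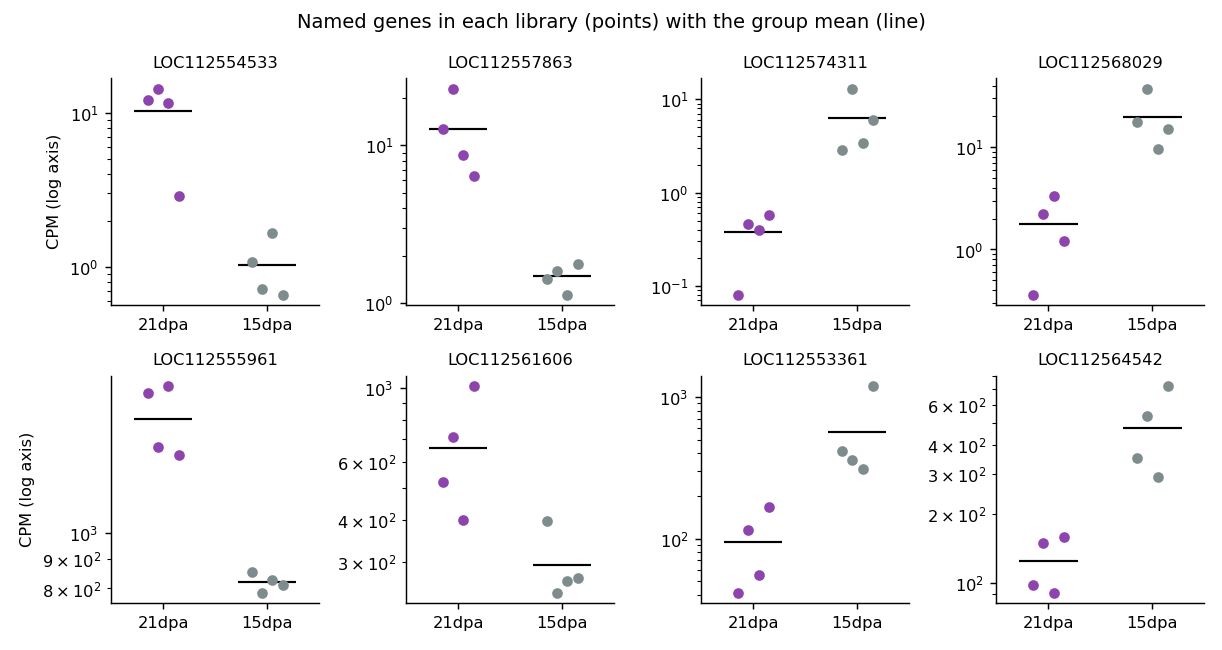
Each panel shows a gene named by rule, with the CPM of every library as a point on a log axis, 21dpa on the left and 15dpa on the right, and the group mean as a line. In all 8 genes the libraries of the 2 days do not overlap, as the rule required, and LOC112553361 has 1 15dpa library far above the other 3.

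The largest gains and losses in CPM, among called genes without overlap, were in 4 other genes. LOC112555961 gained most, with 1752, 1413, 1802 and 1369 CPM in the 21dpa libraries, against 855, 787, 827 and 809.7 CPM in the 15dpa libraries. The gap between the days was larger than the whole range within either of them (log2 fold change 0.95 ± 0.10, adjusted p = 1.56e-07, edgeR). It was among the abundant transcripts of the intact stalk, stood far lower from 1dpa to 9dpa and was high again from 12dpa. Its mean CPM was 1987 ± 99.6 (Intact), 214 ± 22.5 (1dpa), 222 ± 14.2 (9dpa), 1296 ± 209 (12dpa), 819.7 ± 28.9 (15dpa), 1584 ± 224 (21dpa) and 2407 ± 195 (28dpa; SD, n = 4 each). Against Intact it was lower at 21dpa and at 15dpa (log2 fold change -0.33, adjusted p = 0.00755, and -1.28, adjusted p = 2.36e-12, edgeR; these comparisons share libraries with the step), and at 28dpa it was above it (0.28, adjusted p = 0.0287).

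LOC112561606 had 521, 712, 400.4 and 1009 CPM at 21dpa and 399, 243, 263 and 269 CPM at 15dpa. The days were kept apart by less than 2 CPM, between 21dpa replicate 3 and 15dpa replicate 1 (log2 fold change 1.17 ± 0.29, adjusted p = 0.00725, edgeR). Without any of the 8 libraries it was still called, with adjusted p from 0.00356 to 0.0458. Its course held more than 1 rise, with mean CPM of 432 ± 122 (Intact), 928 ± 399.6 (1dpa), 219 ± 34.3 (3dpa), 413 ± 165 (9dpa) and 200.3 ± 38.6 (12dpa).

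The largest losses were in LOC112553361 and LOC112564542. LOC112553361 had 41.5, 114, 55.5 and 166 CPM at 21dpa and 417, 360.3, 312 and 1187 CPM at 15dpa. All 15dpa libraries were above all 21dpa libraries, and 15dpa replicate 4 held more than the other 15dpa libraries together (log2 fold change -2.59 ± 0.78, adjusted p = 0.0277, edgeR). Without that library the log2 fold change was -1.96 and the adjusted p 0.118, and without 21dpa replicate 1, 2 or 3 the adjusted p lay between 0.0632 and 0.0761 at log2 fold changes of -2.35, -2.71 and -2.42. LOC112564542 had 98.0, 149.7, 90.9 and 159 CPM at 21dpa and 353, 537, 289 and 721 CPM at 15dpa (log2 fold change -1.93 ± 0.41, adjusted p = 0.00243, edgeR), and it was called without any of the 8 libraries. Both had their highest mean at 15dpa. The mean CPM of LOC112553361 was 4.34 ± 2.06 (Intact), 24.2 ± 9.04 (6dpa), 88.6 ± 47.3 (9dpa), 218 ± 250.0 (12dpa), 569 ± 414 (15dpa), 94.3 ± 57.2 (21dpa) and 98.9 ± 55.1 (28dpa; SD, n = 4). That of LOC112564542 was 73.6 ± 6.34 (Intact), 267 ± 60.9 (1dpa), 237 ± 236 (12dpa), 475 ± 195 (15dpa), 124 ± 34.8 (21dpa) and 125 ± 38.9 (28dpa). Its 12dpa mean was carried by replicate 2, at 587 CPM, with the other 12dpa libraries at 87.9 to 171 CPM.

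Where the genes of the step had stood before, and where they went after, was read from groups other than 15dpa and 21dpa. These comparisons came from the same fit of all 36 libraries. Their group means use none of the 8 libraries of the step, but the spread behind their calls does. A gene of small spread could thus be called more readily in each comparison. Genes that rose had mostly been below the level of the intact stalk. Of the 1144 rises, 703 (61.5%) were lower at 12dpa than in Intact and 81 (7.08%) higher, where 28.6% of all tested genes were lower and 27.4% higher (56.0% called). Of the falls, 736 of 1119 (65.8%) were higher at 12dpa than in Intact and 53 (4.74%) lower. The median log2 fold change at 12dpa against Intact was -0.55 among the rises and 0.63 among the falls, beside -0.02 over all tested genes. Read at 9dpa in place of 12dpa, a choice made after the data had been seen, 40.8% of the rises were lower than in Intact and 9.18% higher, beside 20.4% and 22.1% of all tested genes (42.4% called), and 52.4% of the falls were higher and 6.34% lower.

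The days on either side of the step were also set against each other. This comparison uses the same 12dpa libraries as that of 12dpa with Intact, so it is not a separate observation of the levels at 12dpa. Comparing 28dpa with 12dpa, 786 of the 1144 rises (68.7%) were higher and 26 (2.27%) lower, where 24.4% of all tested genes were higher and 23.2% lower (47.6% called). Of the 1119 falls, 767 (68.5%) were lower and 26 (2.32%) higher. Against 9dpa, whose libraries also serve in the comparison of 9dpa with Intact, 43.0% of the rises were higher at 28dpa and 1.14% lower, and 52.1% of the falls were lower and 1.52% higher, where 13.2% of all tested genes were higher and 12.1% lower (25.4% called). Leaving out any of the 8 libraries changed which genes made up the step, and the share of rises that were lower at 12dpa than in Intact then lay between 55.5% and 66.2%, and that of rises that were higher at 28dpa than at 12dpa between 61.8% and 75.2%.

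**Figure D3:**
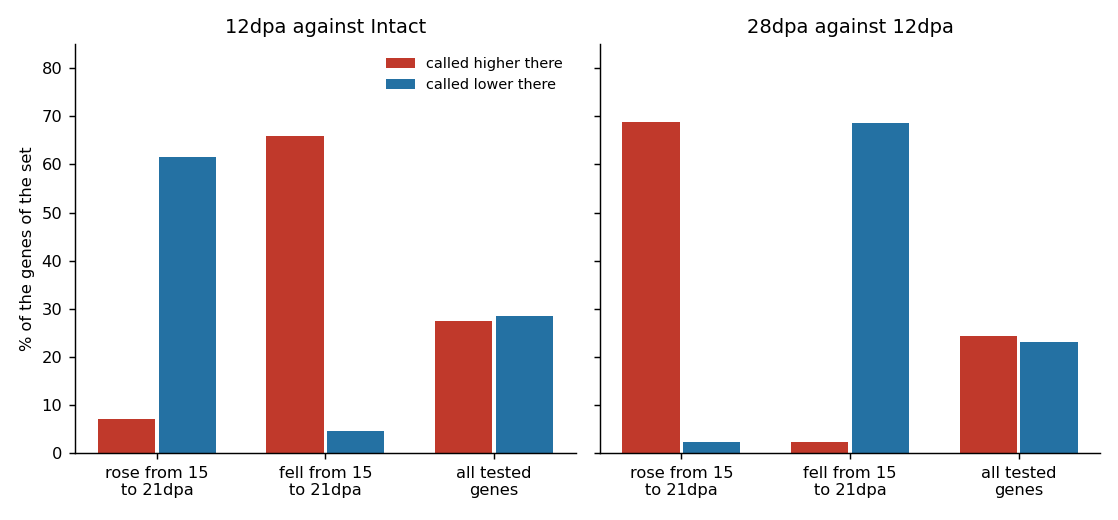
Bars give the percentage of genes called higher (red) or lower (blue) at 12dpa against Intact (left) and at 28dpa against 12dpa (right), for the 1144 genes that rose in the step, the 1119 that fell and all 17341 tested genes. The group means of these comparisons use no library of the step, while the spread behind the calls came from all 36 libraries. Of the rises, 61.5% were lower at 12dpa than in Intact and 68.7% were higher at 28dpa than at 12dpa.

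At 28dpa most genes of the step did not differ from Intact at the threshold, though fewer than among all genes. Of the rises 676 (59.1%) were not called at 28dpa against Intact, 238 (20.8%) were higher and 230 (20.1%) lower. Of the falls 741 (66.2%) were not called, 212 (18.9%) were higher and 166 (14.8%) lower. Over all tested genes 70.2% were not called, 14.9% were higher and 14.9% lower (29.8% called). The medians of the log2 fold change at 28dpa against Intact were 0.07 among the rises and 0.04 among the falls, beside 0.02 over all tested genes.

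**Figure D4:**
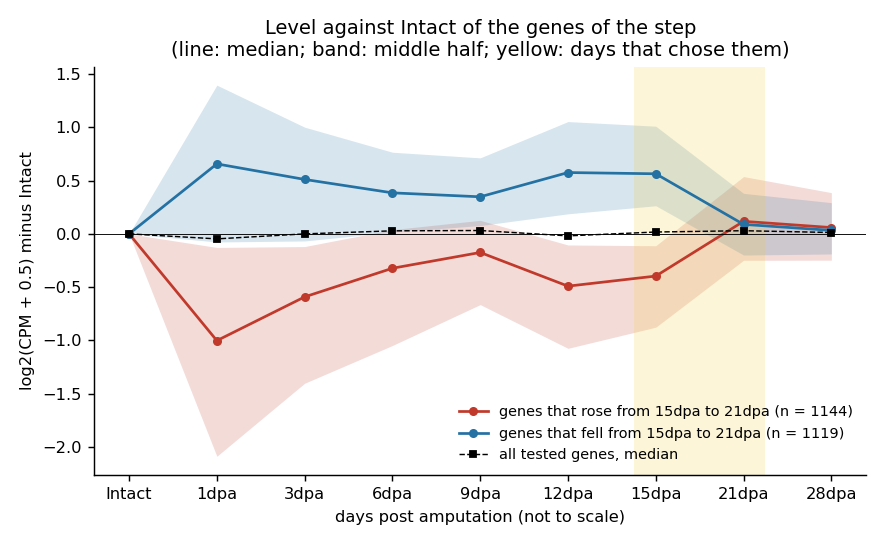
The y axis gives the group mean of log2(CPM + 0.5) minus that in Intact, by group on the x axis, as the median (line) and the middle 50% (band) of the genes that rose (red) or fell (blue) from 15dpa to 21dpa; black is the median of all tested genes. The rises had their lowest median, -1.003, at 1dpa and stood at -0.49 at 12dpa and 0.06 at 28dpa, and the falls stood at 0.66, 0.58 and 0.03; the values at 15dpa and 21dpa chose the genes.

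Single genes with these courses were picked by the size of their change after the values had been seen. They were taken among called genes without overlap that averaged 5 CPM or more on the higher day. A gap between the 2 days was therefore part of the choice. LOC112572474 was below Intact at 12dpa (log2 fold change -3.90, adjusted p = 1.09e-05, edgeR) and was not called at 28dpa (-1.31, adjusted p = 0.0857). It had 63.0, 28.5, 119 and 27.8 CPM in the 21dpa libraries and 10.6, 2.68, 2.55 and 17.0 CPM in the 15dpa libraries, with a wide spread on both days (log2 fold change 2.86 ± 0.62, adjusted p = 0.00330). When only the 8 libraries were fitted its log2 fold change was 2.85 and its adjusted p 0.0603. Its mean CPM swung widely over the course: 61.9 ± 30.6 (Intact), 4.15 ± 1.32 (3dpa), 74.6 ± 8.89 (9dpa), 4.21 ± 3.32 (12dpa) and 25.1 ± 12.4 (28dpa). LOC112554699 was below Intact at 12dpa (-0.73, adjusted p = 0.00314) and above it at 28dpa (0.81, adjusted p = 0.00213, edgeR). It had 15.6, 17.9, 20.0 and 15.1 CPM at 21dpa and 4.39, 2.45, 3.64 and 3.88 CPM at 15dpa, with little spread on either day (log2 fold change 2.26 ± 0.23, adjusted p = 1.48e-07). LOC112554343 was called below Intact at 12dpa and still at 28dpa (-1.38, adjusted p = 0.00140, and -0.92, adjusted p = 0.0484, edgeR). Its Intact libraries held 10.2, 9.76, 8.29 and 31.9 CPM, with replicate 4 far above the others. The 28dpa libraries held 6.38, 9.09, 11.3 and 5.17 CPM and overlapped those other Intact libraries. In the step, LOC112554343 had 4.16, 4.53, 11.2 and 6.11 CPM at 21dpa and 1.46, 1.13, 0.750 and 1.65 CPM at 15dpa (log2 fold change 2.38 ± 0.47, adjusted p = 0.00108). Like LOC112555961, these last genes dipped at 15dpa: LOC112554699 averaged 3.59 ± 0.820 CPM on that day and 9.68 ± 2.54 CPM at 12dpa, and LOC112554343 averaged 1.25 ± 0.394 CPM on that day and 5.76 ± 3.17 CPM at 12dpa.

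Among the falls, LOC112555634 was above Intact at 12dpa and at 28dpa (log2 fold change 4.56, adjusted p = 3.72e-05, and 2.99, adjusted p = 0.00623, edgeR). It had 24.96, 74.3, 25.9 and 75.5 CPM at 21dpa and 210.2, 248, 181 and 706 CPM at 15dpa. As in LOC112553361, 15dpa replicate 4 was far above the other 15dpa libraries, and without it the log2 fold change in the step was -2.10 in place of -2.75 ± 0.73 and the adjusted p 0.0695 in place of 0.0139. LOC112559210 was not called at 12dpa against Intact (-0.32, adjusted p = 0.176) and was lower at 28dpa (-0.64, adjusted p = 0.0160, edgeR). It had 31.8, 39.2, 41.0 and 35.0 CPM at 21dpa and 52.3, 81.4, 145 and 135 CPM at 15dpa, so that 15dpa was the high point of its course (log2 fold change in the step -1.49 ± 0.20, adjusted p = 2.30e-05).

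The genes with the smallest p-values in each direction were ones of little spread, also picked after their values had been seen. LOC112554262 had 170.4, 191, 199 and 183 CPM at 21dpa and 103, 99.6, 111 and 109 CPM at 15dpa (log2 fold change 0.81 ± 0.07, adjusted p = 3.21e-08, edgeR). Its mean CPM was 134 ± 7.17 (Intact), 209 ± 24.9 (1dpa, the highest), 105 ± 3.04 (9dpa), 158 ± 14.2 (12dpa) and 188 ± 12.7 (28dpa). LOC112559240 had 10.4, 11.3, 8.21 and 10.5 CPM at 21dpa and 38.1, 27.9, 30.6 and 30.5 CPM at 15dpa (log2 fold change -1.65 ± 0.16, adjusted p = 5.60e-08, edgeR). This fall led away from the intact stalk, with mean CPM of 169 ± 19.8 (Intact), 3.13 ± 0.820 (1dpa), 12.9 ± 2.40 (12dpa) and 12.2 ± 0.943 (28dpa), and at 28dpa it was lower than in Intact by 3.79 on the log2 scale (adjusted p = 1.05e-17, edgeR). LOC112563905 was the 1 called gene with no count on 1 of the days. It had 1, 11, 2 and 14 counts in the 21dpa libraries, 28 in the 4 together, and none at 15dpa. Most of the counts were thus in replicates 2 and 4. With 3 counts over the 15dpa group as the floor, its total was 9.87-fold higher, a ratio that does not allow for the spread between libraries. Its call (adjusted p = 0.0431, edgeR) was lost in 6 of the 8 fits that left a library out, at adjusted p up to 0.127.

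As a whole the 21dpa libraries were nearer to the intact stalk than the 15dpa libraries, but not beyond the threshold. Over all tested genes the mean distance to the Intact libraries in log2 CPM was 109.6, 114.9, 114.2 and 121.2 in the 21dpa libraries and 126.4, 126.0, 120.7 and 130.2 in the 15dpa libraries. Only 21dpa replicate 4 lay within the 15dpa range. The means were 115 ± 4.78 at 21dpa and 126 ± 3.90 at 15dpa (SD, n = 4 each; two-sided exact permutation test, p = 0.0571, with 0.0286 the smallest this design allows). The difference was -10.83. Leaving out each of the 8 libraries in turn gave differences from -12.92 to -9.045, with exact permutation p from 0.0286 to 0.0857. Only without 21dpa replicate 4 was that p below 0.05 (difference -12.92, exact permutation p = 0.0286). With library size alone as the scaling the difference was -10.7 (exact permutation p = 0.0286), with 21dpa replicate 4 at 121.1 and 15dpa replicate 3 at 121.2. Over the 500 genes of largest variance the distances were 48.5, 52.5, 50.2 and 58.5 at 21dpa. At 15dpa they were 56.3, 57.9, 56.3 and 61.9, so 21dpa replicate 4 again lay within the 15dpa range. Against Intact, 39.3% of genes were called at 21dpa (20.6% higher, 18.7% lower) and 44.8% at 15dpa (22.8% higher, 22.0% lower).

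Set beside its neighbours in time, the step lay between a larger and a smaller one. The 6 days from 15dpa to 21dpa had 2263 calls (13.0% of genes), the 3 days from 12dpa to 15dpa had 4903 (28.3%; 12.6% higher, 15.7% lower) and the 7 days from 21dpa to 28dpa had 159 (0.917%; 0.525% higher, 0.392% lower). These steps share libraries with it, and whether a gene's change differed between steps was not tested. Changes of 2-fold or more numbered 497, 1058 and 31. For the last step, leaving out 21dpa replicate 4 gave 21 calls and leaving out 21dpa replicate 3 gave 67.

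Some of the genes that moved the same way lay next to each other in the genome. Gene order was taken from RefSeq's table of the assembly ASM307304v1, over tested genes only. Of the 1144 rises, 287 (25.1%) had a directly neighbouring gene that also rose, where 12.4% of all tested genes had a neighbour that rose. Of the 1119 falls, 241 (21.5%) had a neighbour that fell, again beside 12.4% of all tested genes. In all, 11 runs of at least 4 genes in a row moved the same way, 7 up and 4 down.

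The longest run held 9 genes, from LOC112569207 to LOC112567728, all of them higher at 21dpa, by 0.95 to 2.15 on the log2 scale. For 8 of the 9 the libraries of the days did not overlap, and 7 were called in each fit that left out a library. Of all 1144 rises, 814 did not overlap and 359 were called in each such fit. Runs were made of genes called in this step, so a gap between the sums of the days was part of the choice. Summed over the run, the libraries held 230.5, 132.3, 117.3 and 161.7 CPM at 21dpa and 58.3, 63.7, 37.7 and 61.3 CPM at 15dpa. Of the 9 group means, that of 21dpa was the highest, at 160.4 ± 50.2 CPM, and that of 15dpa the lowest, at 55.3 ± 11.9 CPM, beside 101.7 ± 33.5 CPM (Intact) and 82.8 ± 25.3 CPM (12dpa; SD, n = 4). At 28dpa the sums ranged from 43.4 to 203.0 CPM. Much of the mean sum came from a single gene, LOC112567729, which averaged 87.9 CPM at 21dpa and 26.1 CPM at 15dpa. The gene with the lowest level, LOC112569581, averaged 0.675 and 0.192 CPM on these days. The next run held 7 genes, from LOC112559453 to LOC112559451, with log2 fold changes from 1.55 to 2.59. For 3 of the 7 the libraries of the days did not overlap. The largest log2 fold change was in LOC112559611, which averaged 0.768 CPM at 21dpa and 0.122 CPM at 15dpa. The sums of this run were 20.4, 18.7, 26.8 and 77.6 CPM at 21dpa and 9.29, 14.3, 10.6 and 10.6 CPM at 15dpa. Much of the mean sum came from LOC112559453, which averaged 19.5 CPM at 21dpa and 6.64 CPM at 15dpa. In 21dpa replicate 4 the sum was far above the other 3, which lay between 18.7 and 26.8 CPM and were still above every 15dpa sum. Without that library none of the 7 genes was called, and none was called either when only the 8 libraries, that one included, were fitted. Neighbours can be near-identical copies that share reads, and how far the genes of a run are independent was not tested.

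**Figure D5:**
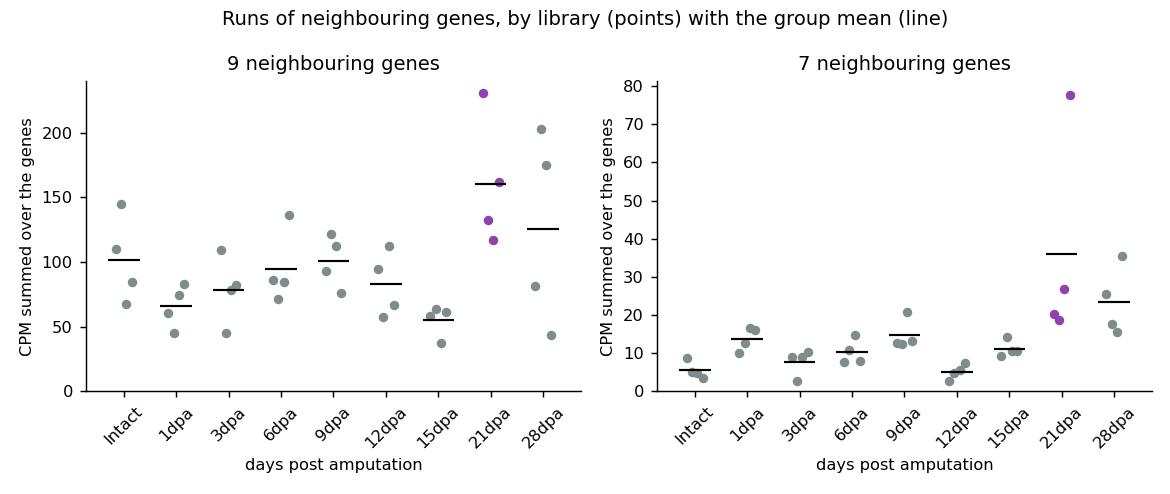
Each point is a library, with its CPM summed over the 9 genes of the longest run (left) and the 7 genes of the next (right), by group on the x axis; lines are group means and 21dpa is in purple. The 9 genes summed to 117.3 CPM or more in every 21dpa library and below 64 CPM in every 15dpa library. The genes of both runs were chosen by their change between these days. In the 7 genes 21dpa replicate 4, at 77.6 CPM, stands apart. LOC112567729 (left) and LOC112559453 (right) made up much of the mean sums of the 2 days.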

How the data were processed

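Per gene, the authors deposited raw counts of reads in 1 table that spans the 36 libraries; RNA was extracted with Trizol and polyA selected, per the labels' protocols. The submitters' processing notes name STAR; the version of STAR, the counter, the build, the gene models and strandedness are not given in these sources, so overlapping or near-identical genes may share counts. All 21131 row identifiers matched symbols in RefSeq's table of ASM307304v1, which was used only for gene order.

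In R 4.3.3 with edgeR 4.0.16, filterByExpr on the 9 groups left 17341 genes with at least 99.98% of each library's counts. A quasi-likelihood model (TMM, glmQLFit robust with the current dispersion method, a mean per group) was fitted to all 36 libraries, and p-values were Benjamini-Hochberg adjusted over all tested genes within a comparison, with a threshold of 0.05. SEs come from the F statistic; distances used log2(CPM + 0.1). The tests were tried on simulated data.

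Genes were named as the 2 largest rises and falls in log2 fold change (mean of 5 CPM or more on the higher day) and in CPM, among called genes without overlap; the other genes were picked with their values in view. Gene lists by protein pattern or product name could not be applied. The step and rules were chosen with earlier results of these data known. No 2 libraries of a day agreed within sampling noise (chi-square per degree of freedom at least 9.78). Alternatives were other scalings and filters, DESeq2 1.42.0 and limma-voom with sample weights (limma 3.58.1). Further ones were a fit of the 8 libraries, a replicate term, a fold threshold and each library left out. An older form of the fit, library size without the 2 genes with most counts, and 9dpa in place of 12dpa were added after the data had been seen.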

Additional observations from a re-analysis of the deposited data

Results flagged for a closer look

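In groups of 4 libraries, a library far from the other 3 (Dixon's ratio of gap to range past its 95% critical value) was marked; chance marks about 1 in 20 groups, and 5 of 54 groups were marked here. Of these, 3 concerned 15dpa replicate 4. LOC112553361 was at 1187 CPM there and between 312 and 417 CPM in the other 15dpa libraries. LOC112555634 was at 706 CPM there and between 181 and 248 CPM in the others. The 10 genes with the most counts held 15.2% of the counts there and between 17.8 and 18.4% in the others. LOC112561606 was at 399 CPM in 15dpa replicate 1 and between 243 and 269 CPM in the others. The summed run of 7 neighbouring genes was at 77.6 CPM in 21dpa replicate 4 and between 18.7 and 26.8 CPM in the other 21dpa libraries.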

How the results depend on the processing

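The 2263 calls were 1279 (679 higher, 600 lower) when only the 8 libraries were fitted and 497 at a log2 fold change of at least 1. With limma-voom and sample weights the count was 3839 (2000 higher, 1839 lower). Library size alone gave 645 higher and 2308 lower, and library size without the 2 genes with most counts 863 and 1558 (35.6% higher). Without each library in turn the count ran from 1118 to 2525, with 523 to 1086 higher and 595 to 1439 lower. DESeq2's RLE factors, both filters, DESeq2 and the older form of the fit gave 1938 to 2485. Calls at 28dpa against 21dpa were 94 with the older form, 347 with DESeq2, 316 with limma-voom and 21 to 157 without a library; the other 6 comparisons stayed within 1.5 times of their counts. Over the 500 genes of largest variance the distance to Intact was 48.5 to 58.5 in the 21dpa libraries and 56.3 to 61.9 in the 15dpa libraries. Over all tested genes the difference in distance to Intact was -10.7 (exact permutation p = 0.0286) with library size alone. Without a library it was -12.92 to -9.045 (exact permutation p from 0.0286 to 0.0857). The difference in the share of the 10 genes was then 3.042 to 4.202 points (exact permutation p from 0.0286 to 0.0571). No log2 fold change of a named gene changed sign; 20 of 338 values lost the call and 2 gained it. The cause of these moves was not tested.

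With the replicate number as a term (replicate block) 2256 genes were called. Deviations of same-numbered 21dpa and 15dpa libraries correlated between -0.17 and 0.24, and only for number 4 was the best match of the same number, so the numbers were not taken to pair the samples. The lists by protein pattern were not run, since no protein sequences are in the reference used here.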

Other observations

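Among the shorter runs of neighbouring genes, that from LOC112577145 to LOC112577175 held 4 genes, higher at 21dpa by 0.95 to 2.03 on the log2 scale, and all 4 were called in each fit that left out a library. The run of 4 falls from LOC112553371 to LOC112553283, which holds LOC112553361, spanned log2 fold changes from -2.77 to -1.36, and 2 of its genes were called in each such fit. The run of 4 falls from LOC112569978 to LOC112570280 spanned -0.63 to -0.21, with no overlap between the days in any of its genes. In this run and that from LOC112564581, 3 of 4 genes were called in each such fit, and in that from LOC112566316 2 of 4. In the runs from LOC112562548, LOC112554903 and LOC112554899 only 1 of 4 was, and in that from LOC112561576 only 1 of 5. Of all 1144 rises, 359 were called in each fit that left out a library. Of all 1119 falls, 444 were called in each such fit and 826 had no overlap.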
